A study of Mus musculus with 24 samples.

Results

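Red blood cell transcripts were followed in endothelial cells sorted from mouse brain, through 4 adult haemoglobin genes, Hba-a1, Hba-a2, Hbb-bs and Hbb-bt, and Alas2, the gene of the red cell form of the first haem synthesis enzyme. These 5 genes were taken by symbol from the 53465 genes that the count table listed, and all 5 passed the filter on low counts that left 15493 genes. The 24 C57BL/6J libraries came from 12 groups of 2, each from CD31-positive cells sorted from 1 mouse, with Bmal1fl/fl mice as controls and Bmal1fl/fl; Tie2cre mice as mutants at zeitgeber time (ZT) 2, 6, 10, 14, 18 and 22. Both genotypes carried the floxed Bmal1 alleles and the same light and feeding schedule, so by design the groups differed in the Tie2-driven Cre and in the hour of collection. The i5 index of the library also varied with genotype, since all mutants outside ZT6 and ZT18 carried the index of the ZT14 and ZT22 controls. Males and females were used, and ages were not given in the sources used here. The Tie2 promoter is active in blood-forming cells as well as in endothelium, so a Tie2-driven deletion is not limited to vessels.

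Haemoglobin is a tetramer of a pair of alpha chains and a pair of beta chains, each holding a haem group that binds oxygen. Alas2 makes the first, rate-limiting precursor of haem in developing red cells, where its gene is switched on with the globins, whereas the related enzyme Alas1 serves all other tissues. Circulating red cells have no nucleus, but the youngest of them, reticulocytes, still carry globin messenger RNA. Red cells lack CD31, the adhesion molecule of endothelium, platelets and many leukocytes on which the cells were sorted. The methods named dissociation, myelin removal, depletion of CD90-positive cells and exclusion of dead cells and doublets, and did not state a perfusion or a lysis of red cells. In bulk libraries such as these, fewer cells of a type and less RNA per cell cannot be told apart.

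The bases just upstream of the start sites of the 5 genes are shown for what they share. The part of these bases in the RNA levels across libraries was not tested. The stretches below are the 250 bases before the RefSeq start on GRCm38.p6, 5′ to 3′ on the strand of the gene, with capitals marking every match, on either strand, to GATAA, to CACCC, to CCAAT or to ATATAA. Hba-a1 is left out because its stretch was identical to that of Hba-a2 over all 247 bases that overlap at a shift of 3.
Hba-a2, chr11:32296242-32296491: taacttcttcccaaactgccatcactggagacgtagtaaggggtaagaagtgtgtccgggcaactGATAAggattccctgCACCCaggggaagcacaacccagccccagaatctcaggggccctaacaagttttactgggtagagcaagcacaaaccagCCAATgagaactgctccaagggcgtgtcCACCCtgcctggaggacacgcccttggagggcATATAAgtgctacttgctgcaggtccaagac
Hbb-bs, chr7:103827929-103828178, minus strand: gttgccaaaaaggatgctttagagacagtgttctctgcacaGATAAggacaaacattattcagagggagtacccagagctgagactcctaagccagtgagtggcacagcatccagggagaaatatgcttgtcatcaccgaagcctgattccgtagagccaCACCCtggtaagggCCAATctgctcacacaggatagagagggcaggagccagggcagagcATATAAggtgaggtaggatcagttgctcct
Hbb-bt, chr7:103813924-103814173, minus strand: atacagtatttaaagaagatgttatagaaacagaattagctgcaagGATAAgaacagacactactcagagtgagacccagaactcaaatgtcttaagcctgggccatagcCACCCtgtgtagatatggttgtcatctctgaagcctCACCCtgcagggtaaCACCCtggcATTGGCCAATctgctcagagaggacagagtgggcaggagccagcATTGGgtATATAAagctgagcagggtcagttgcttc
Alas2, chrX:150547167-150547416: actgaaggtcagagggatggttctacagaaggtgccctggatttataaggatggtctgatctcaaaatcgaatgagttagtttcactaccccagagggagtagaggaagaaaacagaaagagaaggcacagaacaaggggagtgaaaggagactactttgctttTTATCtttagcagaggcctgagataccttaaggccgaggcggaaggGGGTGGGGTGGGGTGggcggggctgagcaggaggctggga
GATAA, the core recognised by GATA factors such as the red cell regulator GATA1, was found in 5 of 5 members, and in 22.6% of the 250-base stretches of all 32851 RefSeq promoters. CACCC, the core recognised by Krüppel-like factors such as KLF1, was also in 5 of 5, against 52.0% of all promoters. The CCAAT box and the TATA-like ATATAA were in the 4 globins and not in Alas2, against 33.9% and 9.10% of all promoters. The ATATAA matches of the globins began 28 to 31 bases upstream of the start, and the GATAA matches of the 5 genes began 86 (Alas2) to 209 (Hbb-bs) bases upstream. CACGTG, the E-box letters bound by CLOCK and BMAL1, were in 0 of 5 of these windows, against 6.02% of all promoters. The stretches of Hbb-bs and Hbb-bt, aligned at a shift of 1 base, had 51.0% of 249 bases in common. No match overlapped another, and the gene spans of the GENCODE annotation begin upstream of the RefSeq starts used here.

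The globins lie in a pair of clusters, and within each cluster the adult copies are nearly identical. On GRCm38 with the GENCODE vM21 annotation, Hba-a1 (ENSMUSG00000069919) spans chr11:32283511-32284465 and Hba-a2 (ENSMUSG00000069917) chr11:32296489-32297298, both on the plus strand with 3 exons. Hbb-bs (ENSMUSG00000052305) spans chr7:103826534-103828096 and Hbb-bt (ENSMUSG00000073940) chr7:103812524-103813996, both on the minus strand with 3 exons. Alas2 (ENSMUSG00000025270) spans chrX:150547375-150570638 on the plus strand with 11 exons, and Apex2 lies across it on the minus strand. The alpha copies differed at 1 of 429 coding bases and the beta copies at 1 of 444. The 41 bases around each difference, in exon 3, are given with the differing base in capitals.
Hba-a1, chr11:32284323-32284363: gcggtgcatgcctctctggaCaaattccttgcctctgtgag
Hba-a2, chr11:32297140-32297180: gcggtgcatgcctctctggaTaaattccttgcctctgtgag
Hbb-bs, chr7:103826672-103826712, minus strand: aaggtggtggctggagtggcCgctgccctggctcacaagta
Hbb-bt, chr7:103812663-103812703, minus strand: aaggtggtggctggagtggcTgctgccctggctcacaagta
Of all 150-base windows of the messenger RNA, 65.7% of those of Hba-a2 and 48.4% of those of Hba-a1 were also in the other alpha copy. For Hbb-bs the share was 58.7% and for Hbb-bt 50.7%. The sources give 2 read lengths, and for windows of 100 bases the shares were 74.5% for Hba-a2, 56.5% for Hba-a1, 62.6% for Hbb-bs and 54.8% for Hbb-bt. How reads that match both copies were counted was not given in the sources used here. The split between Hba-a1 and Hba-a2, and between Hbb-bs and Hbb-bt, is therefore uncertain. Their sums do not depend on the split, but would change if such reads were dropped or counted for both copies.

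The libraries held 6136404 to 6648311 normalized reads, and TMM factors, which correct for composition, ran from 0.873 to 1.04. All 8 ZT6 and ZT18 libraries form an unbroken run of library numbers in the labels, with no other library among them, and stood apart in their contents. Mitochondrial genes took 2.68% to 3.90% of their reads and 5.78% to 17.4% of the reads of the other 16. Time of collection and this run of library numbers cannot be told apart, so the 8 libraries are compared with the other 16 as such, and the genotypes are also compared within each set. The 12 endothelial markers were present in all libraries, at 88948 to 140705 summed reads. Control_ZT10 replicate 1 stood apart in neutrophil markers, with 511 summed reads and at most 54 in any other library. Its platelet sum was also the highest (691, the next 445), and its lymphocyte sum (352) was close to the next (345). Arntl, the gene of BMAL1, had 1 to 468 reads in controls (median 166.5) and 81 to 354 in mutants (median 242.5), but a gene-level count includes exons outside the floxed part and does not check the deletion. Among 12 core clock genes, Nr1d1 (log2 fold change -2.26, adjusted p = 0.00066), Nr1d2 (-1.90, adjusted p = 8.6e-06) and Per3 (-1.89, adjusted p = 4.2e-05) were lower in mutants and Cry1 (0.89, adjusted p = 0.00076) was higher.

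**Figure D1:**
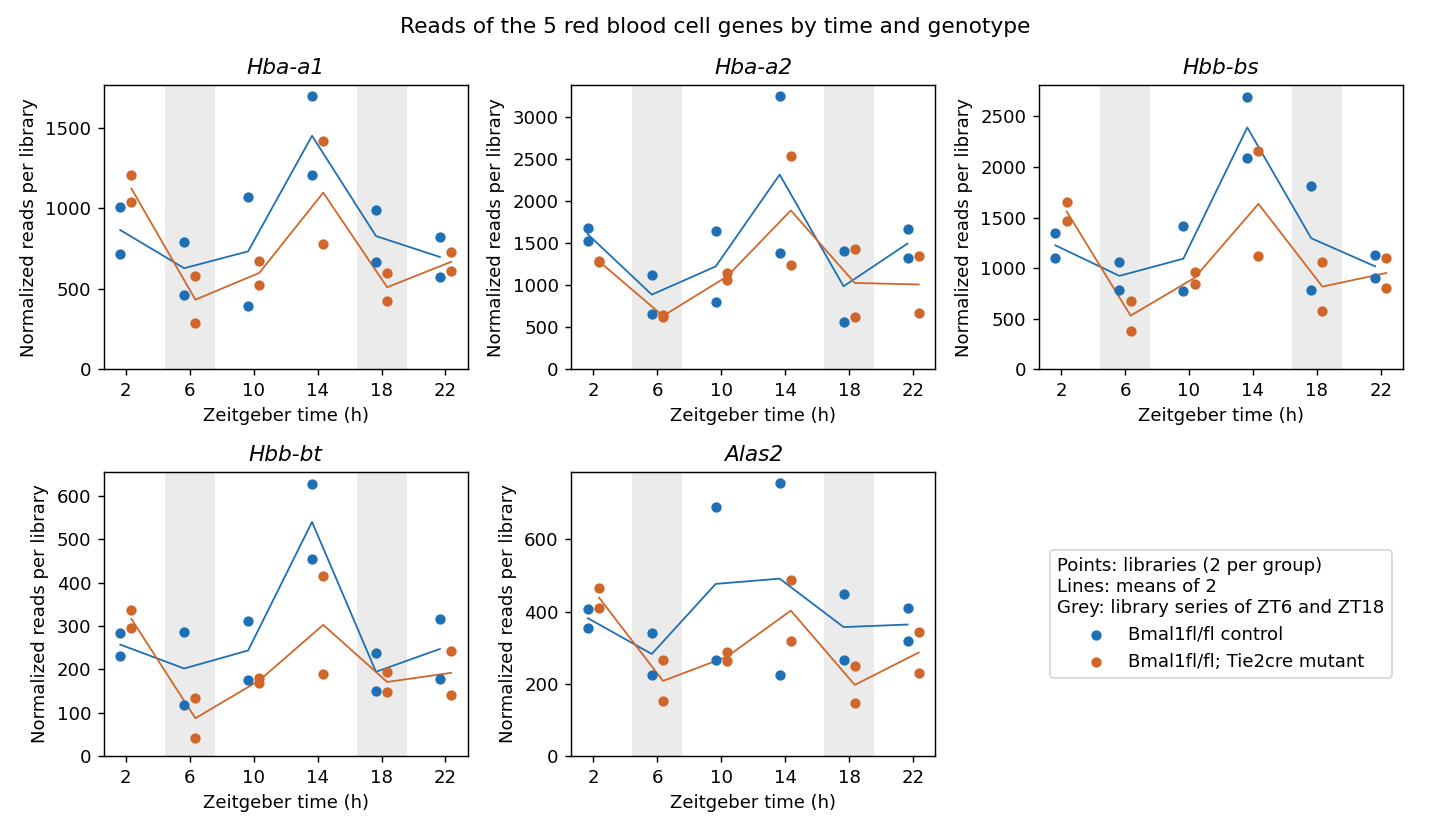
Normalized reads of each gene (vertical axis) against zeitgeber time in hours, with 1 point per library, blue for controls and orange for mutants, lines through the means of 2, and grey bands over ZT6 and ZT18. The highest value of each gene is the same ZT14 control library, for instance 3242 reads of Hba-a2 and 757 of Alas2.

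Globin RNA was present in every library as a small share. The 4 globins together took 0.0533% of reads in the median library. The share was lowest in Bmal1Mut_ZT06 replicate 2, at 0.0218% (1340 reads, Wilson 95% interval 0.0207% to 0.0230%). It was highest in Control_ZT14 replicate 2, at 0.125% (8257 reads, 0.122% to 0.128%), 6.16 times as many reads. These intervals cover counting error only. With Alas2 the 5 genes took 0.0243% to 0.136% of reads.

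Per length, the globins ranked among the abundant transcripts of the sorted cells. On the scale of CPM (reads scaled to a common library total) per kilobase of exon, Hba-a2 stood at 308 ± 155 (SD, n = 24), place 66 of the 15481 genes with a length, and Hbb-bs at 249 ± 122, place 90. Hba-a1 stood at 158 ± 70.7 (place 162), Hbb-bt at 55.6 ± 30.3 (place 526) and Alas2 at 23.0 ± 10.1 (place 1673). For comparison, the CD31 gene Pecam1 stood at 195 ± 39.4 and the tight junction gene Cldn5 at 659 ± 159. Hba-a2 was higher than Hbb-bs in 18 of 24 libraries, with a mean log2 difference of 0.30 and an SD of 0.36 between libraries. Hba-a1 was below both in 24 of 24 libraries, Hbb-bt below Hba-a1 in 24 of 24 and Alas2 below Hbb-bt in 23 of 24. The order within the alpha pair and within the beta pair rests on the uncertain split of their reads.

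The alpha genes were low in most of the 8 libraries. Hba-a1 had 793 and 463 reads in the ZT6 controls, 991 and 664 in the ZT18 controls, 579 and 287 in the ZT6 mutants and 596 and 424 in the ZT18 mutants. In the other 8 controls Hba-a1 ran from 394 to 1694 reads (median 917), and in the other 8 mutants from 526 to 1414 (median 752.5). The 8 libraries thus lay low but overlapped the 16, with 7 of 8 below the median of the 16. Hba-a2 had 1122 and 654 reads in the ZT6 controls, 1405 and 569 in the ZT18 controls, 644 and 626 in the ZT6 mutants and 1432 and 621 in the ZT18 mutants. In the other controls Hba-a2 ran from 801 to 3242 reads (median 1586.5), and in the other mutants from 671 to 2537 (median 1256.5). For Hba-a2, 5 of the 8 libraries were below the lowest of the 16, and the other 3, at 1122, 1405 and 1432 reads, lay among them.

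The beta genes and Alas2 had the same layout. Hbb-bs, the more abundant beta gene of the C57BL/6 haplotype, had 1063 and 786 reads in the ZT6 controls, 1811 and 782 in the ZT18 controls, 679 and 385 in the ZT6 mutants and 1062 and 575 in the ZT18 mutants. In the other controls Hbb-bs ran from 774 to 2695 reads (median 1243.5), and in the other mutants from 808 to 2154 (median 1108). The ZT18 control at 1811 reads was the exception among the 8, the other 7 being below the median of the 16. Hbb-bt, its less abundant neighbour, had 287 and 117 reads in the ZT6 controls, 238 and 151 in the ZT18 controls, 133 and 42 in the ZT6 mutants and 193 and 149 in the ZT18 mutants. Hbb-bt ran from 176 to 626 reads in the other controls (median 297) and from 142 to 415 in the other mutants (median 216). The 42 reads of Hbb-bt in Bmal1Mut_ZT06 replicate 2 were the lowest value of any member, in the library that was also lowest for Hba-a1 and Hbb-bs. Alas2 had 342 and 224 reads in the ZT6 controls, 450 and 265 in the ZT18 controls, 265 and 152 in the ZT6 mutants and 249 and 146 in the ZT18 mutants. Alas2 ran from 226 to 757 reads in the other controls (median 382) and from 229 to 488 in the other mutants (median 331.5). Here too the groups overlapped, with 7 of the 8 below the median of the 16 and 3 of the 8 below their lowest value.

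All 5 members were lower in the ZT6 and ZT18 libraries than in the others. In edgeR's quasi-likelihood fit across all 15493 genes, with a mean for each of the 12 groups, the log2 fold change was -0.71 (SE 0.19, Benjamini-Hochberg adjusted p = 0.0088) for Hba-a2 and -0.56 (SE 0.17, adjusted p = 0.018) for Hba-a1. It was -0.58 (SE 0.16, adjusted p = 0.010) for Hbb-bs and -0.77 (SE 0.21, adjusted p = 0.0090) for Hbb-bt. Alas2 fell by 0.58 (SE 0.20, adjusted p = 0.040). These values correspond to 0.586 (Hbb-bt) to 0.678 (Hba-a1) times the level in the other libraries. Of all genes tested, 11.6% were called lower in the same comparison, the median log2 fold change was 0.009, and the 5 members lay between the percentiles 16.2 and 20.1. DESeq2 also called 5 of 5.

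The call did not hold in every setting. Without the 4 ZT14 libraries, a setting added after the data were seen, 0 of 5 were called by edgeR, with log2 fold changes of -0.35 to -0.56 and adjusted p of 0.052 to 0.17, although 5 of 5 had an unadjusted p under 0.05. The i5 index of the library could not be added to the fit of 12 group means, since each group carries a single index, so it was added to a fit with genotype and the set of ZT6 and ZT18 as terms. That fit called 5 of 5 without the index (-0.59 to -0.81, adjusted p 0.014 to 0.048) and 0 of 5 with it (-0.085 to -0.48, adjusted p 0.43 to 0.94). All 8 ZT6 and ZT18 libraries share 1 i5 index with the 4 control libraries of ZT2 and ZT10, and the other 12 libraries carry the other, so this fit sets them against those 4 controls. Leaving out single libraries lost Alas2 in 12 of 24 cases and Hba-a1 in 4 (without Control_ZT06, Control_ZT18, Bmal1Mut_ZT06 or Bmal1Mut_ZT18 replicate 2, adjusted p 0.062 to 0.075), and kept Hba-a2, Hbb-bs and Hbb-bt in 24 of 24. Control_ZT10 replicate 1, the library apart in neutrophil markers, had 689 reads of Alas2, the second highest value, and without it 4 of 5 were called, with Alas2 at -0.47 (edgeR adjusted p = 0.083).

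**Figure D2:**
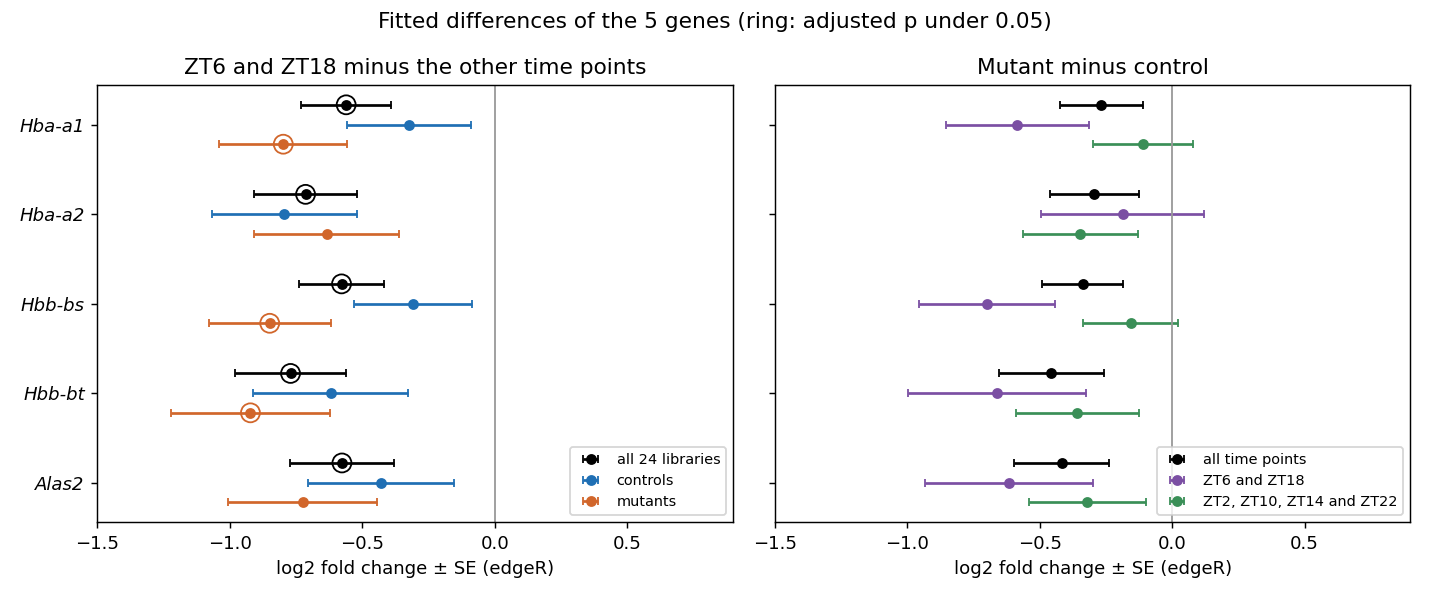
Fitted log2 fold changes with standard errors (horizontal axis) for each gene, for ZT6 and ZT18 against the other time points (left) and mutants against controls (right), with a ring around values whose adjusted p was under 0.05. The 5 black points on the left lie between -0.77 and -0.56 and all carry a ring, and the 5 black points on the right lie between -0.46 and -0.27 without one.

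The same contrast was fitted within each genotype. In mutants, Hbb-bs (-0.85, SE 0.23, adjusted p = 0.016), Hba-a1 (-0.80, SE 0.24, adjusted p = 0.032) and Hbb-bt (-0.92, SE 0.30, adjusted p = 0.049) fell, while Hba-a2 (-0.63, adjusted p = 0.16) and Alas2 (-0.73, adjusted p = 0.11) did not pass in edgeR. This was 3 of 5, against 7.25% of all genes called lower in mutants. DESeq2 called 2 of 5, without Hba-a1 (adjusted p = 0.060), and edgeR with RLE in place of TMM scaling lost Hbb-bt (adjusted p = 0.051). Leaving out single libraries lost Hbb-bt in 15 of 24 cases, Hba-a1 in 7 and Hbb-bs in 3. Without Bmal1Mut_ZT06 replicate 2, Bmal1Mut_ZT14 replicate 2 or Bmal1Mut_ZT18 replicate 2, or without the ZT14 libraries, 0 of 5 were called in mutants, and without any 1 of 4 other mutant libraries 1 of 5 was. In controls 0 of 5 were called by edgeR, against 6.54% of all genes, with log2 fold changes from -0.79 (Hba-a2, SE 0.27, adjusted p = 0.069) to -0.31 (Hbb-bs, SE 0.22, adjusted p = 0.48), 2 of 5 at an unadjusted p under 0.05, and 0 of 5 by DESeq2. Whether the contrast differed between genotypes was tested as an interaction, in which 0% of genes and 0 of 5 members were called by edgeR, 0 of 5 had an unadjusted p under 0.05 (0.095 to 0.68), and DESeq2 called 1 gene that was no member.

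No member passed the threshold between control and mutant endothelium. Hba-a1 had 394 to 1694 reads in the 12 controls (median 808.5) and 287 to 1414 in the 12 mutants (median 640.5). Hbb-bs had 774 to 2695 (median 1117.5) and 385 to 2154 (median 1012), and Alas2 224 to 757 (median 349) and 146 to 488 (median 276.5). The genotypes overlapped for each of the 5 genes, and the medians of the mutants were the lower ones. The log2 fold changes of mutants against controls, with time point in the model, were -0.27 (SE 0.16) for Hba-a1, -0.29 (SE 0.17) for Hba-a2, -0.34 (SE 0.15) for Hbb-bs, -0.46 (SE 0.20) for Hbb-bt and -0.42 (SE 0.18) for Alas2. Adjusted p by edgeR ran from 0.62 to 0.81 and 0 of 5 were called, against 0.271% of all genes, although 3 of 5 had an unadjusted p under 0.05. DESeq2 also called 0 of 5. The members lay between the percentiles 8.44 and 15.6 of all genes in this comparison.

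Within the libraries of ZT6 and ZT18 the log2 fold changes of mutants against controls were -0.19 (Hba-a2) to -0.70 (Hbb-bs, edgeR adjusted p = 0.71), and edgeR called 0 of 5 members and 0.0258% of all genes, with 2 of 5 at an unadjusted p under 0.05 and 0 of 5 by DESeq2. Within the other time points they were -0.11 (Hba-a1) to -0.36 (Hbb-bt), and edgeR called 0 of 5 members and 0.31% of all genes, with 0 of 5 at an unadjusted p under 0.05 and 0 of 5 by DESeq2. Without Control_ZT10 replicate 1 they were 0.11 for Hba-a1, -0.035 for Hbb-bs and -0.11 for Alas2. Within the 13 libraries with the highest numbers, none of ZT6 or ZT18, they were -0.09 (Hbb-bs) to -0.41 (Alas2), with adjusted p of 1.00. The 3 libraries with the lowest numbers, 1 ZT2 control and both ZT14 mutants, had 719 to 1414 reads of Hba-a1 and 318 to 488 of Alas2, inside the range of the 13 highest-numbered ones (394 to 1694 and 226 to 757).

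By time point, the mean of the 2 mutants was below that of the 2 controls at 5 of 6 time points for every member, with the exception at ZT2 for Hba-a1, Hbb-bs, Hbb-bt and Alas2 and at ZT18 for Hba-a2. At ZT2 both mutants had more reads than both controls for these 4 genes, for instance 1656 and 1464 against 1100 and 1352 for Hbb-bs. For Hba-a2 both mutants were below both controls at ZT2 (1276 and 1289 against 1679 and 1528) and at ZT6. Hbb-bt was lower in both mutants than in both controls at ZT14, at 190 and 415 reads against 453 and 626. At most time points the pairs overlapped, in 4 of 6 for each gene. The difference between genotypes at single time points, added after the data were seen, was most negative for Hbb-bt at ZT6 (log2 -1.16, SE 0.48) and most positive for Hba-a1 at ZT2 (0.41, SE 0.38). A test of genotype by time point called 0.0129% of all genes and 0 of 5 members in edgeR, with unadjusted p of 0.24 to 0.91.

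None of the 5 genes was called rhythmic. The meta2d method, which combines the JTK and Lomb-Scargle tests for a period of 24 h, called 0% of genes in controls and 0% in mutants at q under 0.05, although 377 and 351 genes had p under 0.05. For the members the unadjusted p was at least 0.963 in controls, where Hbb-bs was lowest, and rounded to 1.00 in mutants. It depended on the method and on single libraries. A cosinor fit in edgeR gave Hbb-bs an unadjusted p of 0.035 in controls (adjusted p 1.00) and the other members 0.12 to 0.48, and in mutants 0.24 to 0.96. Without Control_ZT18 replicate 2 the meta2d p of Hbb-bs in controls was 0.344, and without Bmal1Mut_ZT18 replicate 2 that of Hba-a2 in mutants was 0.296. The difference in 24-h rhythm between genotypes, fitted in edgeR with cosine and sine terms, called 0% of genes and 0 of 5 members (unadjusted p 0.40 to 0.98), with 660 genes at an unadjusted p under 0.05 and 1 by DESeq2. With 2 mice a time point, the ZT14 controls had the highest mean of the time series for each gene, at 2390.5 ± 431 reads (SD, n = 2) for Hbb-bs and 491.5 ± 375 for Alas2.

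Libraries of the same group differed more in these genes than in most. The standard deviation between the 2 libraries of a group, pooled over the 12 groups, was 0.48 (Hbb-bs) to 0.60 (Hba-a2) on the log2 scale, against 0.044 to 0.11 from counting alone. That placed the members between the percentiles 96.3 and 98.6 of the 3928 genes with a like number of reads, whose median was 0.24. On CPM + 1 after TMM scaling, the median fold between the libraries of a pair was 1.36 for Hbb-bs and 1.87 for Hba-a2. The highest was 3.22 for Alas2 in the ZT14 controls (226 and 757 reads before that scaling). The members mostly moved as one within a pair, since all 5 differed in the same direction in 9 of 12 pairs and the 4 globins in 11 of 12. The summed globins of replicate 2 over replicate 1 went the same way in controls and mutants at 5 of 6 time points, at 0.612 and 0.628 for ZT6, 0.489 and 0.867 for ZT10, 1.58 and 2.01 for ZT14, 0.473 and 0.531 for ZT18, and 1.33 and 1.54 for ZT22. At ZT2 they went opposite ways, at 1.10 and 0.889. Replicates are numbered here by the order of library numbers within a group.

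The ratios between members also varied from library to library. The sum of alpha reads over the sum of beta reads ran from 1.02 to 2.14 with a median of 1.52 and a standard deviation of 0.23 on the log2 scale. The 4 globins over Alas2 ran from 6.45 to 22.7 with a median of 9.81. Of the 6 ratios compared, Hba-a1 over Hbb-bs was the most constant, at 0.509 to 0.853 (log2 SD 0.19), although the genes lie on different chromosomes. Hba-a2 over Hba-a1, the near-identical pair, ran from 0.857 to 2.40 with a log2 SD of 0.41, against 0.071 from counting alone. The control libraries at ZT6 and the first at ZT18 had ratios of 1.41, 1.41 and 1.42, and Control_ZT18 replicate 2 the lowest, 0.857. Hbb-bs over Hbb-bt ran from 3.59 to 9.17 (log2 SD 0.32, counting 0.12), with the highest value in Bmal1Mut_ZT06 replicate 2, where Hbb-bt had 42 reads.

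**Figure D3:**
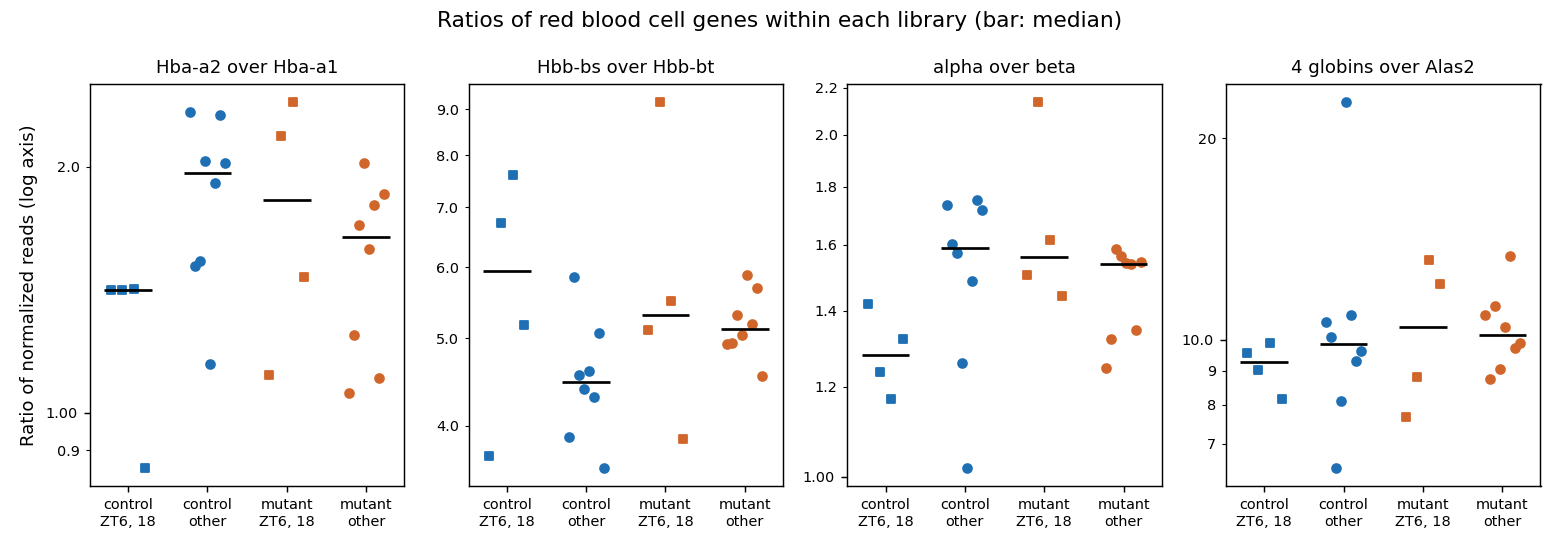
Ratios of normalized reads within each library (vertical log axis), by genotype and set of time points, squares for ZT6 and ZT18, circles for the others, and a bar at the median. Hba-a2 over Hba-a1 spreads from 0.857 to 2.40, and 1 control library at ZT14 stands at 22.7 globin reads per read of Alas2.

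Across the 24 libraries the members followed each other closely. On log2(CPM + 1), Spearman's rho was 0.93 between Hba-a1 and Hbb-bs, 0.92 between Hbb-bs and Hbb-bt and 0.91 between Hba-a1 and Hbb-bt, and 0.77 between the near-identical Hba-a1 and Hba-a2. Alas2, on another chromosome and with its own enzyme function, had a rho of 0.80 with the sum of the 4 globins. For Alas2 it was 0.81 within the 8 ZT6 and ZT18 libraries, 0.72 within the other 16, and 0.92 on the deviations from the group means. Pearson's r for Alas2 and the globins was 0.84, and 0.77 without the 2 libraries farthest from the median. These are descriptions over libraries that share their depth and cell content. Apex2, which lies across Alas2 on the other strand, had a mean of 72.3 reads and a rho of 0.02 with Alas2 over all libraries, 0.45 within the 8 and -0.27 within the 16. With the globins the rho of Apex2 was 0.23, 0.81 and -0.06, and the part of Apex2 in the reads of Alas2 was not tested.

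Genes outside the 5 had lower values with the summed globins than any member, although the highest came close to Alas2 (0.80). Each globin is part of that sum, and with the other 3 globins alone rho was 0.82 for Hba-a2, 0.91 for Hba-a1, 0.93 for Hbb-bt and 0.95 for Hbb-bs. The 10 with the highest rho with the sum of the globins included Lonrf2 (0.79), Trank1 (0.78), Celsr2 (0.77), Pde4a (0.77), Tspoap1 (0.76), D430041D05Rik (0.75), Drp2 (0.75), the mitochondrial ATP synthase gene mt-Atp6 (0.75) and Gm13340 (0.75). Among the other 15488 genes the median rho was -0.005 and 36 were over 0.7. The 5 most like Alas2 were the neuronal sodium channel gene Scn1a (0.75), Rab15 (0.74), Zfp185 (0.74), Phyh (0.73) and Fbxo44 (0.71). With Alas2, Hba-a1 (0.78) and Hbb-bt (0.76) stood above them, whereas Scn1a was level with Hbb-bs (0.75) and above Hba-a2 (0.74). Scn1a had only 17.6 reads on average, from 0 to 57. On the deviations from the group means its rho with Alas2 was 0.58, against 0.91 for Hbb-bs and 0.87 for Hba-a2. The genes named above for the globin sum had 0.31 (Gm13340) to 0.81 (Pde4a) with it on such deviations. The mitochondrial share of reads had a rho of 0.75 with the globins over all 24 libraries, 0.38 within the 8, 0.77 within the 16 and 0.25 on the deviations from the group means, against 0.92 for Alas2 on the same deviations. The part of the mitochondrial share in the globin levels was not tested.

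Other genes of the red cell programme were examined as lists. Among the 14 other globin-family and globin chaperone genes, 11 were listed, 6 had no read and 1 was tested. That gene was Cygb, cytoglobin, found in fibroblast-like cells, with 40.3 reads on average (log2 fold change 0.65 at ZT6 and ZT18, adjusted p = 0.21). The embryonic beta gene Hbb-y had 76 reads over all 24 libraries, and the embryonic genes Hba-x and Hbb-bh1 had 0. Of 10 red cell transcription factors 4 had enough reads to be tested, and the defining ones did not. Gata1 had 3 reads over all libraries, and Klf1 and Gfi1b had 0 of 151237351 reads, which allows at most 0.0198 CPM. Lmo2 and Ldb1, partners of GATA1 that endothelium also uses, had 1141 and 558 reads on average, with log2 fold changes of 0.15 and -0.20 at ZT6 and ZT18 (adjusted p 0.30 and 0.14).

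Genes of the red cell membrane and its skeleton were present at low levels. Of 19, 13 were tested and 4 fell in the ZT6 and ZT18 libraries by edgeR, with a median log2 fold change of -0.68, against 11.6% of all genes called lower and a median of 0.009. Those that fell were Sptb, beta spectrin (-1.43, adjusted p = 0.00033), Ank1, the ankyrin that ties spectrin to the membrane (-2.03, adjusted p = 0.0033), Tspan33 (-2.29, adjusted p = 0.0026) and Ermap (-3.65, adjusted p = 0.029, with 7.17 reads on average). Slc4a1, the anion exchanger band 3 and a defining red cell gene, had 33.9 reads on average and a log2 fold change of -0.48 (adjusted p = 0.56). Slc4a1 had a rho of 0.69 with the globins, Ank1 0.67 and the reticulocyte gene Fam46c 0.69. These lie near the top of their lists. Over the tested genes of the membrane list rho ran from -0.22 to 0.69 (median 0.37). For the genes known from reticulocytes it ran from -0.42 to 0.70 (median 0.30). The median was 0.03 for the haem synthesis genes and -0.10 for the tested transcription factors. Sptb and Ank1 are also used by neurons.

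Of 15 haem synthesis genes tested, 1 rose and 1 fell in the ZT6 and ZT18 libraries, against 11.6% of all genes called lower and 7.75% higher. The median log2 fold change was -0.10, and 12 of 15 were below 0, as were 49.0% of all genes. Slc25a37, mitoferrin, which brings iron into mitochondria for haem, fell by 1.07 (adjusted p = 0.00030), and Alas1, the form of the enzyme in other tissues, rose by 0.34 (adjusted p = 0.0091), opposite to Alas2. Fech, which inserts the iron, had a log2 fold change of -0.28 (adjusted p = 0.20). Among 20 genes known from reticulocytes 17 were tested, with 1 higher (Rsad2, an interferon-induced gene, 0.44, adjusted p = 0.021) and 1 lower (Fam46c, -1.64, adjusted p = 1.5e-06). In the genotype comparison Bpgm, the enzyme that makes the haemoglobin ligand bisphosphoglycerate, fell by 0.57 (adjusted p = 0.035) in mutants, with 327 reads on average in controls and 221 in mutants. The other tested genes of the red cell, haem and iron lists did not pass the threshold in that comparison, in which 0.271% of all genes were called.

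Of 10 tested genes of haem breakdown and iron storage 4 were lower at ZT6 and ZT18, against 11.6% of all genes, among them the haemoglobin scavenger receptor Cd163 (-4.35, adjusted p = 0.00085), a macrophage gene, the haemopexin receptor Lrp1 (-1.46, adjusted p = 3.0e-10) and the ferritin gene Fth1 (-0.74, adjusted p = 7.0e-07), with Ftl1, the other ferritin gene, at -0.35.

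**Figure D4:**
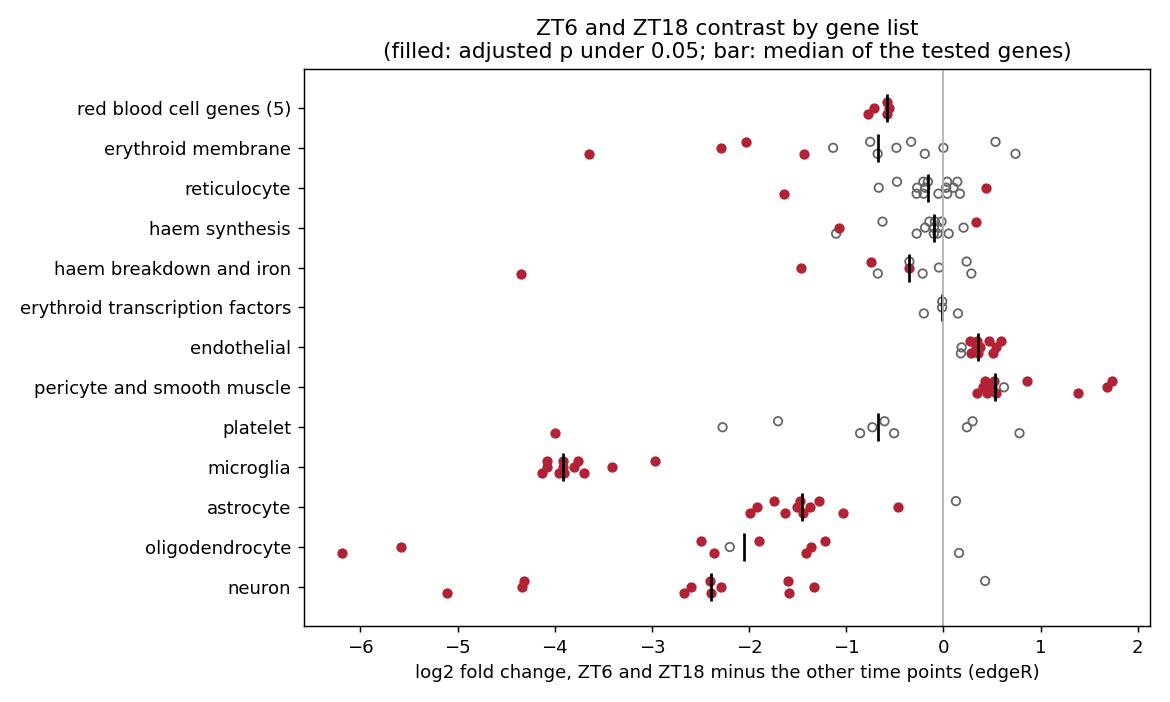
Log2 fold change of every tested gene of each list (horizontal axis) in the ZT6 and ZT18 libraries against the others, filled where the adjusted p was under 0.05, with a bar at the median of the list. The 5 red blood cell genes have a median of -0.58, between the endothelial list at 0.35 and the microglia list at -3.91.

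Markers of other cells moved with the same contrast, in which 11.6% of all genes were called lower and 7.75% higher. All 12 microglia markers fell at ZT6 and ZT18 (median -3.91), from 11765 to 31619 summed reads in the other 16 libraries to 1279 to 2166 in the 8. So did 11 of 12 astrocyte markers (median -1.46), 11 of 12 neuron markers (median -2.39, 623 to 2464 reads against 395 to 652) and 8 of 10 oligodendrocyte markers (median -2.05), while 10 of 12 endothelial and 11 of 12 pericyte and smooth muscle markers rose (medians 0.35 and 0.53). The members had a median of -0.58, and their difference from these lists was not tested. Summed reads of the 5 genes overlapped between the sets (1492 to 4895 in the 8 and 2410 to 9014 in the 16), as did those of the neuron and oligodendrocyte lists (4989 to 8050 and 7935 to 21651 for the latter), while those of the microglia and astrocyte lists did not (4914 to 8085 and 11187 to 22045 for the latter). Over all libraries the rho of the summed markers with the globins was 0.71 for oligodendrocytes, 0.68 for neurons, 0.53 for astrocytes, 0.30 for microglia, -0.42 for endothelium and -0.67 for pericytes and smooth muscle. Within the 8 and within the 16 it was 0.48 and 0.61 for oligodendrocytes, 0.40 and 0.56 for neurons, and 0.36 and 0.23 for astrocytes. Microglia had -0.02 and -0.31, endothelium -0.14 and -0.02, and pericytes and smooth muscle -0.05 and -0.70. Platelet markers, which a CD31 gate could keep, had 83 to 691 summed reads over 12 genes and a rho of 0.09 with the globins. Of the 10 tested, 1 was lower at ZT6 and ZT18, near the 11.6% of all genes called lower. Only 1 of 12 neutrophil and 1 of 12 lymphocyte markers had enough reads to be tested, at log2 fold changes of 0.55 (not called) and -3.34 (called). The summed lymphocyte markers did not overlap between the sets either, at 8 to 40 reads in the 8 and 106 to 352 in the 16, whereas the neutrophil sums did (5 to 54 and 0 to 511). The part of these cell types in the levels of the 5 genes was not tested.

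**Figure D5:**
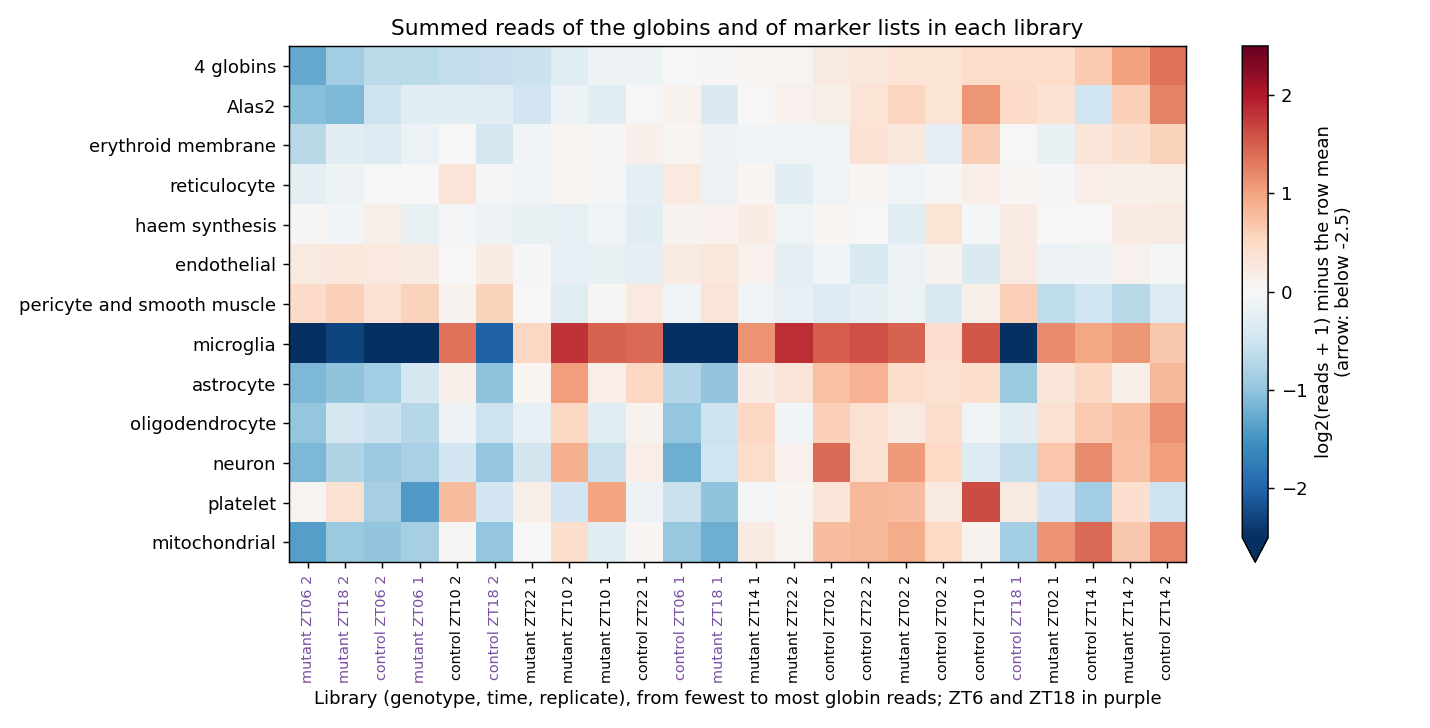
Summed reads of the globins, Alas2, the marker lists and the mitochondrial genes in each library as log2 differences from the mean of the line (colour), with libraries ordered from the fewest globin reads (left) to the most (right) and ZT6 and ZT18 names in purple. Globins run from 1340 to 8257 reads, 4 of the 8 ZT6 and ZT18 libraries are below the lowest of the other 16, and the microglia line is lower in each of the 8 than in any of the 16.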

How the data were processed

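RNA of sorted cells was made into libraries with a strand-specific total RNA kit for low input (SMARTer Pico). The authors aligned reads to GRCm38 with STAR 2.5.3a, per the submitters' processing notes, which also name SAMtools 1.3.1, and normalized with PORT. The deposited values are counts, whole normalized reads per gene, so the count test was run on them as deposited and library totals differ little. Whether counting used strand was not given in the sources used here.

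Genes with at least 5 reads in at least 6 control or 6 mutant libraries were tested in edgeR 4.0.16 (R 4.3.3, quasi-likelihood, TMM), and p-values were adjusted by the Benjamini-Hochberg method over all 15493 genes, with 0.05 as the threshold. The genotype difference came from a model with genotype and time point, and the ZT6 and ZT18 contrasts and the differences within sets from contrasts of the 12 group means. Rhythms were tested with a Python 3.11.15 implementation of meta2d, and per-kilobase values used exon lengths of GENCODE vM21, present for 99.9% of tested genes. Correlations used log2(CPM + 1). Scripts were tested on simulated data. Each library came from 1 mouse, and the study describes 2 independent experiments. The sample titles hold a library number and no replicate number, and replicates were numbered here by the order of library numbers within a group. Whether this order marks the experiments was not given in the sources used here, so the replicate numbers were not used as pairs. The text names the 5 members, per list and comparison up to 3 called genes in each direction or else those with the most reads, and the genes most like the globins or Alas2, of which 1 is not reported here. Ermap, Slc4a1, Hbb-y, Hba-x, Hbb-bh1, Gata1, Klf1, Gfi1b, Ftl1 and the genes given for scale were named after their values were seen. The members and lists were chosen with earlier results of these data known. Alternatives were other scalings, DESeq2 1.42.0, other filters, a replicate block, the i5 index, sets of library numbers and leaving out each library, and, chosen after seeing the data, leaving out ZT14 and the genotype by time point test. Protein sequences were not used here.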

Additional observations from a re-analysis of the deposited data

Results flagged for a closer look

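Of 36 groups of 4 to 8 libraries examined for a library far from the rest, 5 held one, and chance alone marks about 1 in 20 groups. Hba-a2 had 3242 reads in Control_ZT14 replicate 2, with 1679 in the next of the controls outside ZT6 and ZT18. Hba-a2 likewise had 2537 reads in Bmal1Mut_ZT14 replicate 2, with 1346 in the next mutant of that set. In the mutants of ZT6 and ZT18, Bmal1Mut_ZT18 replicate 1 had 1432 reads of Hba-a2 and the next library 644. The ratio of Hba-a2 to Hba-a1 was 0.857 in Control_ZT18 replicate 2, and 1.41 in the next of the controls of ZT6 and ZT18. The 4 globins over Alas2 stood at 22.7 in Control_ZT14 replicate 1, and at 10.9 in the next control outside ZT6 and ZT18. Of the 5, 4 involve Hba-a2, whose reads share most of their sequence with Hba-a1, and no cause was tested.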

How the results depend on the processing

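Over all alternatives the genotype difference and the ZT6 and ZT18 contrast of each member stayed negative. In the fit with genotype and the set as terms, which called 5 of 5, adding the i5 index gave a ZT6 and ZT18 contrast of -0.17 for Hba-a1, -0.43 for Hba-a2, -0.085 for Hbb-bs, -0.26 for Hbb-bt and -0.48 for Alas2, and 0 of 5 were called. Without ZT14, chosen after seeing the data, the contrast of group means was -0.36, -0.52, -0.35, -0.56 and -0.49 in the same order, with 0 of 5 called, 0 in mutants, and the genotype difference of Hba-a1 within the other time points at 0.013. Without the 3 lowest-numbered libraries Alas2 stood at -0.55 (adjusted p = 0.080), and 0 of 5 were called in mutants. With no filter beyond 1 read Hbb-bs passed between genotypes (-0.34, adjusted p = 0.030), and the members called were 1 for genotype, 1 for genotype within ZT6 and ZT18, 1 for the contrast in controls and 5 in mutants. With 10 reads in every library 1 was called in controls.

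Leaving out each library moved the ZT6 and ZT18 contrast of Alas2 between -0.69 and -0.43 and of Hba-a1 between -0.71 and -0.45, and the members called between 3 and 5, 0 and 1 in controls and 0 and 3 in mutants. In controls the contrast ran from -0.68 to -0.060 for Hbb-bs, -0.55 to -0.10 for Hba-a1 and -0.65 to -0.14 for Alas2. For Hbb-bt in controls it ran from -1.02 to -0.36, and for Hba-a2 from -1.20 to -0.53. Signs changed for the difference of the contrast between genotypes of Hba-a2 (-0.21 to 0.57) and Hbb-bt (-0.86 to 0.097), for the genotype difference of Hba-a2 within ZT6 and ZT18 (-0.56 to 0.22) and for that of Hba-a1 within the other time points (-0.24 to 0.11).

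Over all genes, the 42 called between genotypes became 99 by DESeq2, 141 with no filter, 7 with the i5 index, 5 within the 13 highest-numbered libraries and 8 without ZT14. The 3001 called for ZT6 and ZT18 became 1944 with 10 reads in every library and 1003 with the i5 index (2595 in that fit without it), and the 1651 in mutants became 1042 with 10 reads. Leaving out 1 library moved the 42 to 25 (without Bmal1Mut_ZT06 replicate 2) or 68 (without its replicate 1), the 1511 in controls to 959 or 983 (without either Control_ZT06 library), the 1651 in mutants to 1045 (without Bmal1Mut_ZT18 replicate 1), the 4 within ZT6 and ZT18 to between 0 and 10 and the 48 within the other time points to as few as 22, the last over 1.5 times in 11 of 24 cases. For the difference of the contrast between genotypes, 0 became 1 by DESeq2 and 21 with no filter. For genotype within ZT6 and ZT18, 4 became 32 by DESeq2 and 74 with no filter, and within the other time points 48 became 104, 142 and, without ZT14, 9. For rhythms in controls 0 became 14 by cosinor, and for the rhythm difference 1 by DESeq2 and 52 with no filter.

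A replicate block changed no call of a member (ZT6 and ZT18 contrast of Hbb-bs -0.61, of Hba-a1 -0.59, genotype difference of Hbb-bs -0.33). It called 4 genes for the difference of the contrast, 9 for genotype within ZT6 and ZT18 and 4 for rhythms in controls by cosinor. Libraries of a time point with the same number correlated at -0.005 to 0.034 in their deviations over all genes, too low to treat the numbers as pairs, although the globins of the 2 genotypes deviated the same way at 5 of 6 time points. Depth limits Hbb-bt most, at 42 reads in its lowest library. With 2 mice a group and 1 library each, the spread between libraries, not counting, sets the error.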
